A study of Mus musculus with 15 samples.

Results

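The nuclear pore proteins (nucleoporins) form the channels of the nuclear envelope, and the ribosomes on their mRNAs were measured in mouse embryonic stem cells (mESCs). The members were taken by gene symbol in the GENCODE M21 annotation, as all symbols that begin with Nup followed by a digit, l or c, together with *Tpr*, *Pom121*, *Ndc1*, *Aaas*, *Rae1*, *Seh1l*, *Sec13*, *Ranbp2*, *Ahctf1* and *Gle1*. This gave 33 of the 21727 transcripts in the count table, each listed there by the authors as the canonical transcript of its gene, and 30 of them had enough counts to be tested. The cells were of the E14Tg2a.4 line, grown with leukemia inhibitory factor. In 3 clones a 3xFLAG tag had been inserted by CRISPR at the C-terminus of both copies of *Rps27* (*Rps27-FLAG*, labelled eS27-FLAG), in 3 clones at that of *Rps27l* (*Rps27l-FLAG*, labelled eS27L-FLAG), and 3 clones were untagged (WT). *Rps27* and *Rps27l* encode near-identical paralogs of a protein of the small ribosomal subunit. The mRNA fragments that ribosomes protect from RNase (RPFs) were sequenced for each of the 9 clones without selection (total RPFs) and, for the 6 tagged clones, also after pulling ribosomes down by the tag (IP RPFs), which gave 15 libraries in 5 groups of 3. WT cells have no IP library, so the background of the immunoprecipitation was not measured here. Cells were lysed in cycloheximide, which stops elongation. The 3 clones of a line are its replicates 1 to 3, and the study's sample table lists each number as a sequencing batch, whose barcoded RPFs were pooled for library construction.

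A pore is built from a small set of proteins, each present in many copies. The Y-shaped outer ring complex and the inner ring make the scaffold, a membrane ring anchors it where both nuclear membranes meet, and filaments on the cytoplasmic face and a basket on the nuclear side extend from it. The channel itself is filled by disordered stretches rich in phenylalanine-glycine (Phe-Gly, or FG) repeats, which bind the transport receptors that carry proteins and RNA through the pore. mESCs divide rapidly and assemble new pores in every cell cycle, both at the end of mitosis and in interphase.

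The 4 FG nucleoporins shown here hold more Phe-Gly codon pairs in their coding sequence (CDS) than the scaffold protein Nup205. The 180-base stretch of the CDS with the most Phe-Gly codon pairs is shown for these 4, and for Nup205 as a contrast. The results below set *Nup98*, *Nup214* and *Nup153* beside the other long members, by limits chosen after the values were seen. Bases are those of GENCODE M21 on GRCm38, 5′ to 3′ on the coding strand, and capitals mark a codon for Phe followed by a codon for Gly.
Nup62: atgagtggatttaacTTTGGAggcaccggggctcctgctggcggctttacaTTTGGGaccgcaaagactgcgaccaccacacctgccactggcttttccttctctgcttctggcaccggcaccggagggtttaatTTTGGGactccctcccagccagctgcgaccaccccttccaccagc
Nup98: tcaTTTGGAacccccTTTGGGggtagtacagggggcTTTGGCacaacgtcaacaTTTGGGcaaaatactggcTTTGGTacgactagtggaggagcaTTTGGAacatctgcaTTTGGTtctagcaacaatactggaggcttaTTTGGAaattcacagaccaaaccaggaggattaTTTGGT
Nup214: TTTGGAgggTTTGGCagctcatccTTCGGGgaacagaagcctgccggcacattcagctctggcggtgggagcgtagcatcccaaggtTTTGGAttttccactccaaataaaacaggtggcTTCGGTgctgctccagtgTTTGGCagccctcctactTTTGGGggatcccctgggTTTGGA
Nup153: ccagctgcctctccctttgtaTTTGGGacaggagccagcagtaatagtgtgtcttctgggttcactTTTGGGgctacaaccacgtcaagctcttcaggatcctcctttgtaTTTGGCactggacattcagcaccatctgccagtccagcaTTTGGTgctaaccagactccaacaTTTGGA
Nup205: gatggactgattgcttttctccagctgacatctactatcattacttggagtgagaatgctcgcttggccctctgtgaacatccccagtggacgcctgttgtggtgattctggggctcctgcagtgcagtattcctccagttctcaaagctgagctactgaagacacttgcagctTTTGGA
These stretches hold 3 pairs in *Nup62* (bases 1 to 180 of the CDS), 9 in *Nup98* (13 to 192), 8 in *Nup214* (5773 to 5952), 5 in *Nup153* (3766 to 3945) and 1 in *Nup205* (1783 to 1962). Over the whole CDS, *Nup214* has 46 pairs, or 2.21 per 100 codons, *Nup98* 41 (2.26 per 100), *Nup153* 29 (1.98 per 100) and *Nup62* 6 (1.14 per 100), against 4 in *Nup205* (0.199 per 100). *Nup62* lies at chr7:44816088-44830812 on the plus strand with its whole CDS in 1 exon. *Nup98* lies at chr7:102119398-102210176 on the minus strand (32 coding exons), *Nup214* at chr2:31974436-32052371 on the plus strand (36 coding exons) and *Nup153* at chr13:46679905-46727940 on the minus strand (22 coding exons). *Nup205* lies at chr6:35177430-35247596 on the plus strand (43 coding exons). The *Nup98* transcript encodes a precursor that is cleaved into Nup98, an FG protein, and Nup96, a member of the Y complex, and it was counted with the outer ring here.

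Libraries held between 3972152 and 8064166 counts, with 3972152 to 6673935 in the IP and 6313827 to 8064166 in the total RPF libraries, and no library was a copy of another. All 11 pluripotency markers examined (*Pou5f1*, *Sox2* and *Nanog* among them) were above a CPM of 2 (counts scaled to the library size) in every library, with a summed level of 4379 to 4883 CPM in the total and 5179 to 5352 CPM in the IP libraries. The summed levels of the endoderm, mesoderm, trophoblast, neural and fibroblast marker lists were at most 33.2 CPM in any library. In bulk libraries fewer cells of a kind and less RNA per cell cannot be told apart, and with no mRNA libraries used here, the same holds for less mRNA and fewer ribosomes per mRNA.

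All 33 members were accounted for. The 3 that were not tested are *Nupl1*, *Nup35* and *Nup210l*. *Nupl1*, which encodes the channel protein Nup58, had a count of 0 in all 15 libraries. All 1509 windows of 28 bases in its counted CDS also occur in *Gm49336*, which had 25 to 74 counts per library, so its count cannot be separated from that of its copy when only unique alignments are kept. *Nup35*, which encodes an inner ring protein, had 0 to 6 counts per library although 0 of its 888 windows are shared. The count is that of the transcript in the authors' table, and whether it matches the GENCODE M21 transcript was not settled. *Nup210l*, a relative of the membrane protein gene *Nup210*, had 0 to 10 counts. Of the tested members, *Nup188* shared 4.86% of its windows, mostly with *Gm28038* (0 to 1 counts per library), and *Sec13* 3.87%, and fragments from shared windows are left out of the counts in every library alike.

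Levels differed between members by nearly an order of magnitude in WT cells. The level of a gene is given as normalized CPM per kilobase of counted CDS in the total RPFs, as mean ± SD over the 3 WT clones, and levels are descriptions with no test. The median over the tested members was 118 CPM per kilobase. In the outer ring, *Seh1l*, whose protein also works in nutrient signalling, was highest with 189 ± 18.2 and *Ahctf1*, whose protein (Elys) starts pore assembly on chromatin, lowest with 72.8 ± 1.61. The other outer ring members lay between 110 and 169 CPM per kilobase. In the inner ring, *Nup155* reached 179 ± 14.4 and *Nup93*, its next neighbour with 165 ± 4.21, overlapped its clones. The large inner ring genes *Nup205* (102 ± 3.20) and *Nup188* (96.0 ± 4.12) were clearly below both. Their WT clones ranged from 98.9 to 105 for *Nup205* and from 91.3 to 98.6 for *Nup188*, so the order of this pair is not set by more than the spread of clones.

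Of the channel genes, *Nup62* stood at 186 ± 6.03 CPM per kilobase, above *Nup62cl* (96.8 ± 26.7) and *Nup54* (95.3 ± 6.05), which overlapped each other. In the membrane ring, *Aaas* (101 ± 7.90) and *Ndc1* (100.4 ± 4.43) overlapped, while *Pom121* (46.9 ± 2.81) and *Nup210* (26.6 ± 1.10) were lower than both and apart from each other. The cytoplasmic face held the widest range. *Rae1*, an mRNA export factor, stood at 183 ± 14.1, and *Nupl2* (encoding Nup42) and *Gle1*, whose proteins together activate an RNA helicase in mRNA export, stood at 20.6 ± 1.23 and 23.3 ± 2.68. In the basket, *Tpr*, which forms the filaments of the basket, was highest with 139 ± 1.91 and *Nup153* lowest with 96.4 ± 5.78. WT clones of *Nup62cl*, an X-linked relative of *Nup62*, had the largest SD of the level per kilobase among the tested members, with 95.7, 67.1 and 56.8 normalized CPM in replicates 1 to 3.

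**Figure D1:**
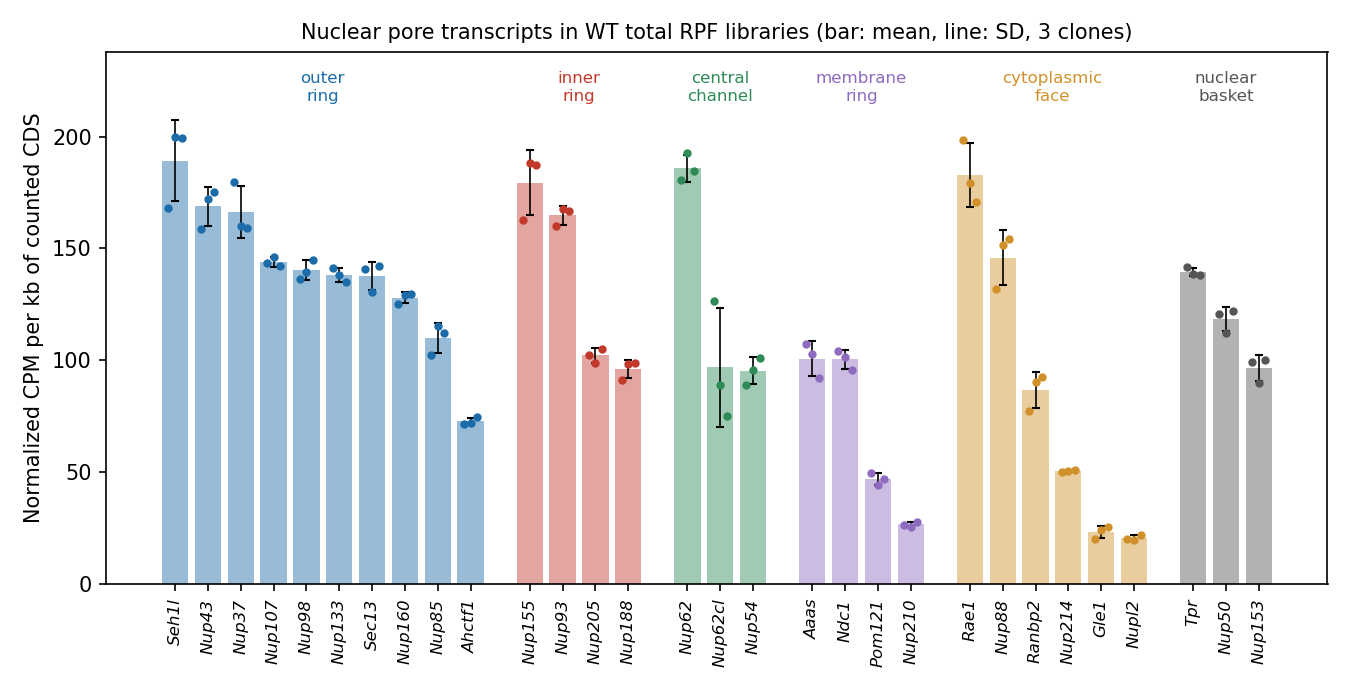
Normalized CPM per kilobase of counted CDS (y axis) of the 30 tested members in the WT total RPF libraries, by place in the pore, with bars for means, lines for the SD and points for the 3 clones. *Seh1l*, *Nup62*, *Rae1* and *Nup155* have means of 179 to 189, and *Nupl2*, *Gle1* and *Nup210* of 20.6 to 26.6.

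The first question was whether tagging either paralog changed the ribosomes on nucleoporin mRNAs, from the total RPFs of the 9 clones. No member was called higher or lower in any of the 3 comparisons, at an adjusted p under 0.05 over 10085 transcripts. Without the replicate block, the background over all tested transcripts was also 0% called in *Rps27-FLAG* against WT, 0% in *Rps27l-FLAG* against WT and 0% in *Rps27l-FLAG* against *Rps27-FLAG*. At an unadjusted p under 0.05, edgeR gave 2 members in the first, 1 in the second and 3 in the last comparison, and with voom and limma or DESeq2 the adjusted count of members stayed at 0. With the replicate block 0 members were called as well, with 4, 5 and 5 at an unadjusted p under 0.05, while 0.00992%, 1.43% and 1.36% of all tested transcripts were called. The median log2 fold change of the members was 0.02 (range -0.46 to 0.19) for *Rps27-FLAG* against WT, -0.03 (-0.23 to 0.14) for *Rps27l-FLAG* against WT and -0.03 (-0.23 to 0.60) between the tagged lines. The standard error of a member's log2 fold change had a median of 0.067 in each. The comparisons share clones in pairs, so their values are not independent.

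The members with the lowest unadjusted p in these comparisons are given as values that were not called. *Nup214*, on the cytoplasmic face, had 311, 313 and 316 normalized CPM in WT total RPFs, 266, 273 and 280 in *Rps27-FLAG* and 291, 271 and 282 in *Rps27l-FLAG*. The WT clones were above all 6 tagged clones, with log2 fold changes of -0.20 (standard error 0.052, adjusted p = 0.999) and -0.16 (standard error 0.052, adjusted p = 0.821). *Nup43*, a β-propeller protein of the Y complex, had 189, 225 and 210 in *Rps27-FLAG*, 172, 165 and 195 in *Rps27l-FLAG* and 171, 186 and 189 in WT, and *Rps27-FLAG* replicate 1 had almost the value of the highest WT clone. Its log2 fold changes were 0.19 for *Rps27-FLAG* against WT and -0.23 for *Rps27l-FLAG* against *Rps27-FLAG* (standard error 0.085 each). *Nup155* had 721, 773 and 781 in *Rps27-FLAG* and 623, 682 and 703 in *Rps27l-FLAG*, groups that did not overlap (log2 fold change -0.18, standard error 0.071, adjusted p = 0.803). *Nup210* had 126, 148 and 108 in *Rps27l-FLAG* against 149, 143 and 155 in WT, and these overlapped.

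The next question was whether ribosomes with tagged Rps27 carried nucleoporin mRNAs in the same proportion as all ribosomes of the same cells. In the *Rps27-FLAG* line 9 of the 30 tested members were lower in the IP than in the total RPFs, where 5.34% of all tested transcripts were lower. None was higher (0.327% of all tested), also with voom and limma or DESeq2, although *Sec13* and *Nup62* were higher at an unadjusted p under 0.05. The 9 were *Nup205* and *Nup188* of the inner ring, *Ahctf1*, *Nup107*, *Nup160*, *Nup43* and *Nup37* of the outer ring, *Tpr* of the basket and *Ranbp2* of the cytoplasmic filaments. The IP and total libraries of a clone are a pair. With the clone as a block, 18 members were lower (22.9% of all tested) and 6 higher (18.3% of all tested). Leaving out *Rps27-FLAG* replicate 1 gave 14 lower and 3 higher without the block (18% of all tested called in either direction). Leaving out replicate 2 or replicate 3 gave 0 of either (0% of all tested), with 8 and 9 members at an unadjusted p under 0.05.

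*Nup205* showed the largest difference of the members. Its normalized CPM were 316, 322 and 311 in the IP against 585, 604 and 593 in the total RPFs of *Rps27-FLAG*, groups far apart, which is a log2 fold change of -0.91 (adjusted p = 4.80e-04, standard error 0.052). *Nup188*, its large partner in the inner ring, had 309, 329 and 321 in the IP against 500, 498 and 528 in the total RPFs, again with no overlap (log2 fold change -0.67, standard error 0.057, adjusted p = 0.00128). The rest of the inner ring moved less. *Nup155* and *Nup93* had log2 fold changes of -0.21 and -0.20, and both were called only with the clone as a block (adjusted p = 5.6e-11 and 2.2e-09).

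In the outer ring, 9 of the 10 tested members had negative values and 5 of the 10 were lower. *Ahctf1* had 268, 307 and 302 normalized CPM in the IP and 436, 468 and 471 in the total RPFs (log2 fold change -0.65, standard error 0.071, adjusted p = 0.00249). *Nup107*, a stalk protein of the Y complex, had 254, 280 and 266 against 386, 404 and 398 (log2 fold change -0.57, standard error 0.060, adjusted p = 0.00215). For *Nup160*, which forms an arm of the Y, the clones had 396, 401 and 408 in the IP against 499, 533 and 543 in the total RPFs (log2 fold change -0.39, standard error 0.057, adjusted p = 0.00823). In all of these every IP library lay below every total library. *Nup133*, which binds *Nup107*'s protein in the same stalk, did not move with it, with log2 ratios of IP over total of -0.02, -0.03 and 0.01 in the 3 clones. *Sec13*, which encodes a protein shared with COPII vesicle coats, was the only outer ring member with a positive value, 0.19, and was called higher with the clone as a block (adjusted p = 2.5e-05).

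*Tpr* had 668, 777 and 770 normalized CPM in the IP and 975, 1058 and 1027 in the total RPFs of *Rps27-FLAG*, without overlap (log2 fold change -0.47, standard error 0.075, adjusted p = 0.0113). The other basket members did not follow it. *Nup153* had log2 ratios of IP over total from -0.02 to 0.03 in the clones, and *Nup50*, which helps to disassemble import complexes, from 0.07 to 0.24. The channel members *Nup62*, *Nup54* and *Nup62cl* had positive values in all 3 clones, with fitted log2 fold changes of 0.19 to 0.22, and all 3 were called higher with the clone as a block. The 4 membrane ring members had negative values of -0.26 to -0.12, and all 4 were called lower only with that block. Of all tested transcripts, 22.9% were lower and 18.3% higher with it. With the block kept and the trend with CDS length removed, 0 membrane ring members were called lower, and the 3 channel members were still called higher.

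In the *Rps27l-FLAG* line 5 members were lower in the IP (2.27% of all tested) and none was higher (0.833% of all tested), with no member higher at an unadjusted p under 0.05 in edgeR or at an adjusted p in the other tools. These were *Nup205*, *Nup188*, *Ahctf1*, *Nup107* and *Nup160*, all of them also lower in *Rps27-FLAG*. The normalized CPM of *Nup205* were 386, 409 and 348 in the IP and 601, 639 and 546 in the total RPFs (log2 fold change -0.64, standard error 0.078, adjusted p = 0.00702). The level varied between clones in both fractions, while the log2 ratio of each clone stayed between -0.65 and -0.64. *Nup188* had 351, 353 and 344 against 468, 495 and 482 (log2 fold change -0.46, standard error 0.047, adjusted p = 0.00445). *Ahctf1* had 313, 339 and 306 against 472, 464 and 449 (log2 fold change -0.53, standard error 0.055, adjusted p = 0.00445). Each of these had IP libraries below all total libraries.

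*Nup107* had 313, 273 and 283 normalized CPM in the *Rps27l-FLAG* IP against 411, 397 and 397 (log2 fold change -0.47, standard error 0.062, adjusted p = 0.0111). *Nup160* had 455, 431 and 431 against 527, 521 and 524 (log2 fold change -0.26, standard error 0.046, adjusted p = 0.0267), the smallest of the called differences in this line. With the clone as a block 17 members were lower (19% of all tested) and 3 higher (12% of all tested), the latter *Nup62*, *Nup50* and *Nup62cl*. Without *Rps27l-FLAG* replicate 1 or replicate 2 no member was called by edgeR without the block (0% of all tested, and 7 members each at an unadjusted p under 0.05), and without replicate 3 there were 5 (3.16% of all tested). Among members not called without the block, *Ranbp2*, a giant protein of the cytoplasmic filaments with SUMO ligase activity, had log2 ratios of -0.29, -0.31 and -0.30 in the clones (adjusted p = 0.0604, and 4.5e-14 with the block). *Nup133* again stood near 0, from -0.04 to -0.02.

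**Figure D2:**
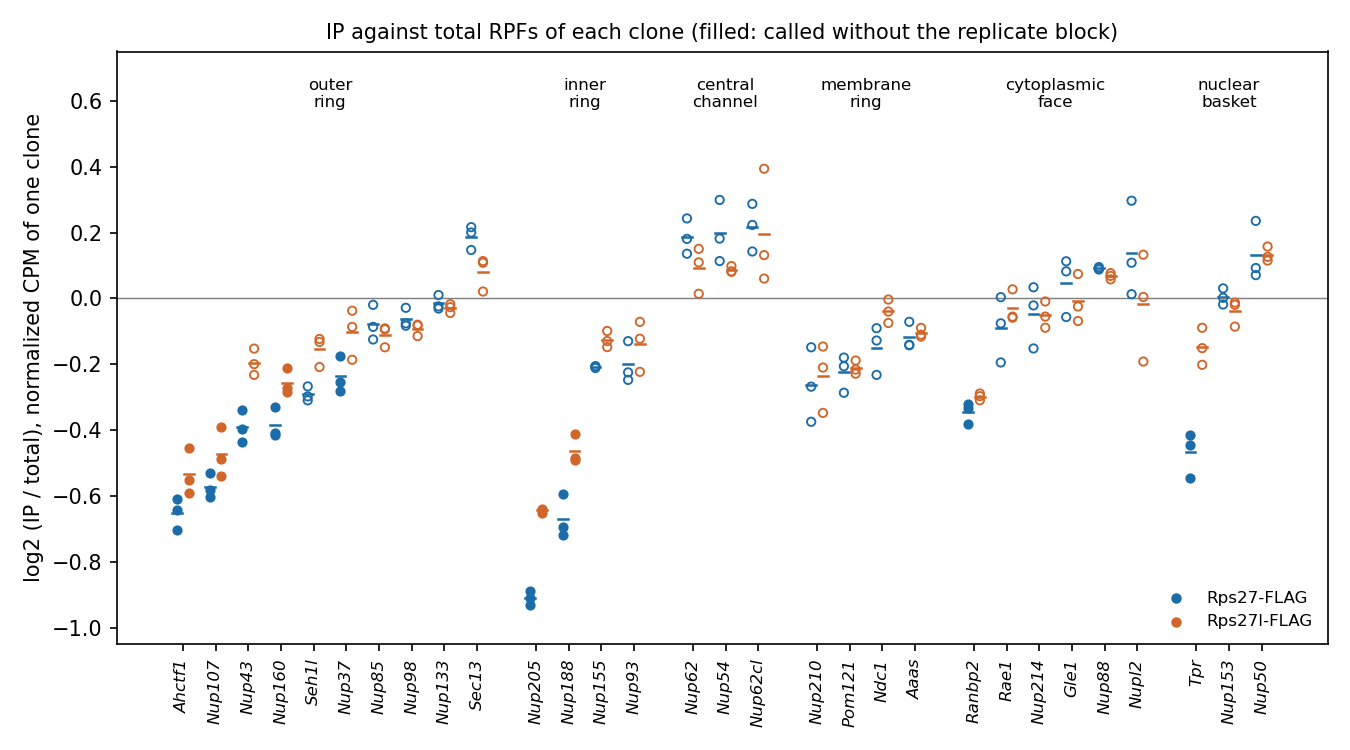
The log2 ratio of normalized CPM in the IP over the total RPFs of each clone (y axis) for the 30 tested members by place in the pore, with a short line at the mean of 3 clones, *Rps27-FLAG* in blue and *Rps27l-FLAG* in orange, filled where the member was called without the clone as a block. *Nup205*, *Nup188*, *Ahctf1* and *Nup107* lie lowest in both lines, and the channel members lie above 0 in every clone.

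The differences followed the length of the CDS, as they did for other transcripts. Over the members, Spearman's rho of the log2 fold change and CDS length was -0.52 in *Rps27-FLAG* and -0.60 in *Rps27l-FLAG* (n = 30), and over all tested transcripts with a CDS in the annotation it was -0.56 and -0.53 (n = 10082). These correlations are across genes of the same libraries, which are not independent, and are descriptions. Members are long, with a median CDS of 2342 nt against 1440 nt for all tested. Among transcripts with a CDS over 5000 nt, 5 of the 8 members were lower in the *Rps27-FLAG* IP against 36.6% of the 500 tested, and with the clone as a block 6 of 8 against 73.2%. In the *Rps27l-FLAG* IP 3 of the 8 were lower against 23%, and with the block 7 of 8 against 69.2%. The median log2 fold change of these 8 members (-0.41 and -0.27 in the lines) was near that of all 500 long transcripts (-0.40 and -0.33).

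Long members nevertheless spread widely at like length. Of the 500 long transcripts, 24 had a lower log2 fold change than *Nup205* (CDS of 6024 nt) in *Rps27-FLAG* and 43 in *Rps27l-FLAG*. *Nup214*, with a CDS of 6255 nt, had 430 and 433 of the 500 below it, at log2 fold changes of -0.04 and -0.05. *Nup98* (5448 nt) had 418 and 406 below it, and *Nup188* (5277 nt) 108 and 138. *Ranbp2*, the longest member with 9159 nt, lay near the middle, with 284 and 274 below it. *Nup107*, with a CDS of only 2778 nt, lay below the median of the 500 long transcripts in both lines.

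**Figure D3:**
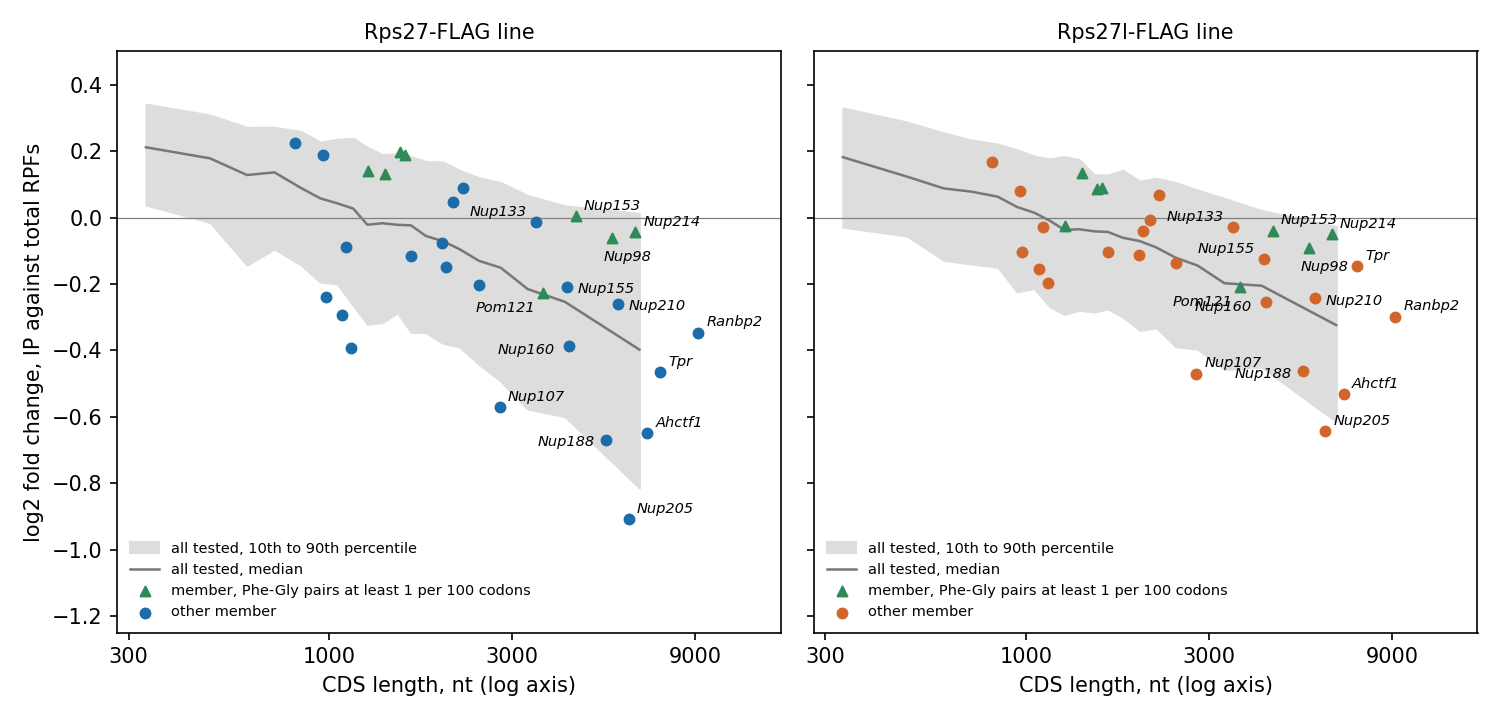
The log2 fold change of IP against total RPFs (y axis) and the CDS length in nt (log x axis) of the 30 tested members, with the median and the 10th to 90th percentiles of all tested transcripts in 20 length bins of 504 or 505, for each tagged line. Triangles mark the 8 members with at least 1 Phe-Gly pair per 100 codons. All of them but *Pom121* lie above the median line in both panels. *Nup205* and *Nup107* lie below the band in both panels.

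To see the members beside others of their length, the trend with CDS length was removed from each library and the clone kept as a block. In *Rps27-FLAG* 9 members were then lower (13% of all tested) and 11 higher (18.4% of all tested), with a median log2 fold change of 0.04. In *Rps27l-FLAG* 7 were lower (8.05% of all tested) and 10 higher (14.7% of all tested), again with a median of 0.04. *Nup205* remained the lowest of the members, at -0.55 and -0.35, followed by *Nup107* at -0.40 and -0.32 in the lines. *Nup43* (-0.39 and -0.18), *Nup188* (-0.34 and -0.19), *Seh1l* (-0.30 and -0.14), *Nup37* (-0.27 and -0.12) and *Ahctf1* (-0.26 and -0.22) were lower in both lines too. *Nup160* was lower in *Rps27-FLAG* (-0.11) and not called in *Rps27l-FLAG* (-0.03). *Tpr* was not called in *Rps27-FLAG* (-0.06, adjusted p = 0.13) and turned from -0.15 to 0.18 in *Rps27l-FLAG*, where it was then called higher (adjusted p = 1.5e-06). *Ranbp2*, lower in *Rps27-FLAG* before this correction (-0.35), was then called higher there (0.11, adjusted p = 0.0015), and in *Rps27l-FLAG* it turned from -0.30 to 0.07, which was not called (adjusted p = 0.098). *Rae1* was called lower in *Rps27-FLAG* (-0.10, adjusted p = 0.016) and not in *Rps27l-FLAG* (-0.02). The IP effects of the lines did not pass the test of their difference for *Nup160* (adjusted p = 0.0951) or *Rae1* (adjusted p = 0.711). With the length trend removed and no block, *Nup205* in *Rps27-FLAG* was the only member called in either line, where 0.268% and 0.0793% of all tested transcripts were called, while 14 and 13 members had an unadjusted p under 0.05.

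On this scale most members with many Phe-Gly pairs per 100 codons stood on the high side. At least 1 Phe-Gly pair per 100 codons was found in 8 tested members, *Nupl2*, *Nup98*, *Nup214*, *Pom121*, *Nup153*, *Nup54*, *Nup62* and *Nup50*, against 2.37% of the 10082 tested transcripts with a CDS. *Ranbp2*, with 20 pairs, fell short of this limit at 0.655 per 100 codons, under *Ndc1* (0.743) and *Rae1* (0.815). This limit was chosen after the values were seen, so what follows is a description with no test. With the length trend removed and the clone as a block, 6 of these 8 were called higher and none lower in each line, all but *Nupl2* and *Pom121*, with medians of 0.24 and 0.17. Of the 22 members under the limit, 9 were lower and 5 higher in *Rps27-FLAG*, against 7 lower and 4 higher in *Rps27l-FLAG*. Without the length correction or the block, none of the 8 was called in either line, while all 9 and all 5 called members were among the 22.

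The members with a CDS over 4000 nt, a length also chosen after the values were seen, separated by the Phe-Gly limit. *Nup214*, *Nup98* and *Nup153* had log2 fold changes of -0.06 to 0.00 in *Rps27-FLAG* and -0.09 to -0.04 in *Rps27l-FLAG*. The other 8 long members had -0.91 to -0.21 and -0.64 to -0.13, with no overlap. This depends on both limits. *Pom121*, with a CDS of 3600 nt and 2.00 pairs per 100 codons, had -0.23 and -0.21, within the range of these 8. *Ranbp2*, with 20 pairs but 0.655 per 100 codons, is counted among the 8. Only 3 tested transcripts that are not nucleoporins reach both the length and the Phe-Gly limit, and theirs were -0.53 to 0.06 and -0.38 to 0.03. *Nup133* (3465 nt, 0.173 pairs per 100 codons) and *Nup88* (2226 nt, 0.270 pairs per 100 codons), which docks *Nup214*'s protein on the cytoplasmic face, are members with few pairs that were higher once the length trend was removed, at 0.21 each in *Rps27-FLAG* and 0.16 and 0.18 in *Rps27l-FLAG*. Over all 30 members Spearman's rho between Phe-Gly pairs per 100 codons and the log2 fold change was 0.27 and 0.16 in the lines without correction, and 0.45 and 0.33 with the length trend removed and the clone as a block. Over all 10082 tested transcripts the values without correction had the opposite sign, -0.11 and -0.09. No such value with the length trend removed is given for all tested. The 239 tested transcripts at or over the Phe-Gly limit, members included, had positive median log2 fold changes without correction, 0.13 and 0.07. Their median CDS was 816 nt.

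The last question was whether the IP effect differed between the tagged lines, tested as the difference of both effects over 12 libraries with the clone as a block, where a call also needed a log2 fold change of more than 0.25 in size. *Tpr* and *Nup205* passed, both less reduced in the *Rps27l-FLAG* than in the *Rps27-FLAG* IP, where 0.466% of all tested transcripts passed in this direction. None passed in the other (0.0992% of all tested), with no such member at an unadjusted p under 0.05, nor did any with voom and limma or DESeq2. For *Tpr*, the log2 ratios of IP over total were -0.20, -0.09 and -0.15 in *Rps27l-FLAG* and -0.55, -0.44 and -0.41 in *Rps27-FLAG*, which do not overlap, for a difference of 0.32 (standard error 0.040, adjusted p = 1.57e-09). For *Nup205* they were -0.64, -0.64 and -0.65 against -0.89, -0.91 and -0.93, for a difference of 0.26 (standard error 0.042, adjusted p = 7.40e-06). These are 2 of the 8 members with a CDS over 5000 nt, a class in which 5.4% of the 500 passed. *Nup188* (difference 0.21, adjusted p = 0.00110) and *Nup43* (0.19, adjusted p = 0.0286) passed the adjusted p and not the limit. By the paper, pull-downs from *Rps27l-FLAG* cells yielded RPFs at a lower RNA concentration than those from *Rps27-FLAG* cells. Whether this bears on the differences was not tested.

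By place in the pore, the 4 inner ring members had positive values of 0.06 to 0.26, with a median of 0.14, and the outer ring had a median of 0.11 (range -0.10 to 0.19). The 3 channel members had negative values, from -0.10 to -0.06, none of them called. The median of all tested transcripts was 0.00. The median CDS was 4725 nt in the inner ring, 2373 nt in the outer ring and 1530 nt in the channel. After removal of the length trend their medians were 0.10, 0.06 and -0.09 in that order. With the length trend removed, 0 members passed the limit (0.179% of all tested were higher), and 9 members had an unadjusted p under 0.05. *Tpr* (0.24, adjusted p = 8.33e-05) and *Nup205* (0.19, adjusted p = 0.00491), which had passed before, still passed the adjusted p. The highest outer ring value was then 0.21, above that of *Nup205*. Adjusted p of the other members with the trend removed are not given here. Without the clone as a block no transcript passed, and the differences of *Tpr* and *Nup205* were 0.32 and 0.27. Leaving out any clone of the tagged lines in turn left *Tpr* and *Nup205* as the members that passed.

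**Figure D4:**
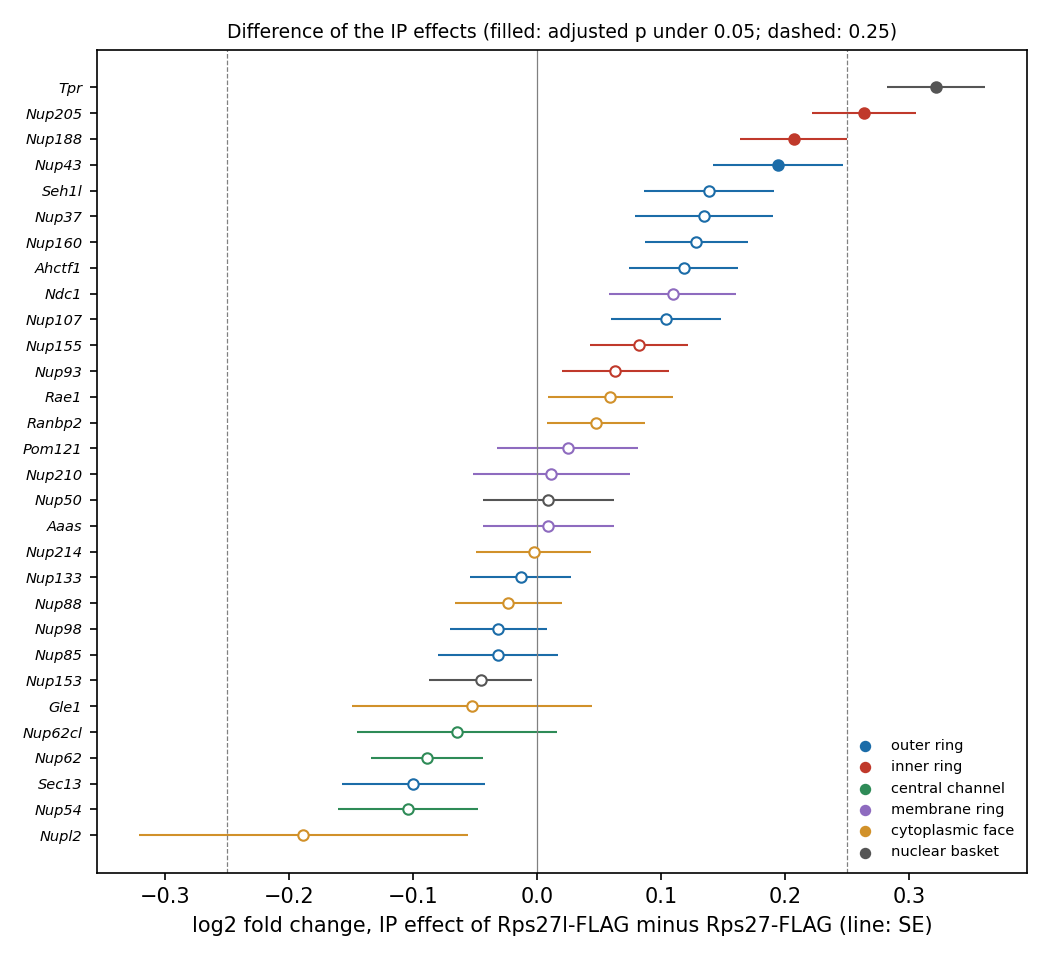
The IP effect of *Rps27l-FLAG* minus that of *Rps27-FLAG* (x axis, log2 fold change with its standard error) for the 30 tested members, coloured by place in the pore, filled where the adjusted p is under 0.05 and with dashed lines at the limit of 0.25. *Tpr* and *Nup205* lie past the limit, and *Nup54*, *Nup62* and *Nup62cl* lie below 0.

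The partners of the pore in transport were listed for comparison. In the IP of the lines, 5.34% and 2.27% of all tested transcripts were lower and 0.327% and 0.833% higher. Of 22 tested nuclear transport receptors, 6 were lower in the *Rps27-FLAG* IP and 1 in the *Rps27l-FLAG* IP, with medians of -0.17 and -0.16 and a median CDS of 2919 nt. The largest were *Ipo4*, an importin for histones, at -0.67 (standard error 0.087, adjusted p = 0.00499), and *Xpo6*, the exportin for actin, at -0.40 (standard error 0.078, adjusted p = 0.0268), in *Rps27-FLAG*, and *Xpo4* at -0.41 (standard error 0.076, adjusted p = 0.0284) in *Rps27l-FLAG*. In the Ran cycle, which gives transport its direction, 5 genes were tested with medians of 0.20 and 0.11, and only *Ran* itself in *Rps27l-FLAG* was called, at 0.26 (standard error 0.056, adjusted p = 0.0486). Of 15 mRNA export genes only *Mcm3ap*, the scaffold of the TREX-2 complex at the basket, was called, lower in both lines (-0.92 and -0.73). Its CDS has 5913 nt, and of the 500 transcripts with a CDS over 5000 nt 36.6% and 23% were lower. Of 16 nuclear envelope and lamina genes only *Sun1* was called, lower in *Rps27-FLAG* (-0.58). With the clone as a block the transport receptors had 13 lower in each line and 4 and 3 higher, the Ran cycle 5 and 3 higher, mRNA export 5 and 4 higher and 4 and 3 lower, and the envelope list 4 and 7 higher and 2 lower in each. Of all tested transcripts, 22.9% and 19% were lower with this block and 18.3% and 12% higher. No gene of these lists was called between the lines in the total RPFs without a block, or in the difference of the IP effects. With the replicate block, 1 gene of the envelope list was lower in the total RPFs of *Rps27l-FLAG* than in those of WT (1.43% of all tested called in either direction).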

How the data were processed

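Ribosome-protected fragments of 9 mESC clones were analysed in 15 libraries. The authors trimmed reads with cutadapt 2.4, removed duplicates by molecular identifiers with UMI-tools 1.0.1, aligned to transcripts of GRCm38 with Bowtie2 2.3.4.3 (versions from the submitters' processing notes and the paper's methods) and kept unique alignments. The deposited values are raw counts of A sites per CDS without the first 15 and last 5 codons, so long genes have more counts and genes with identical copies lose them. Of 21727 transcripts, 13 mitochondrially encoded ones were left out, and 10085 with CPM over 2 in at least 14 libraries were tested. TMM factors were computed separately for IP and total libraries. Counts were tested with the quasi-likelihood test of edgeR 4.0.16 in R 4.3.3, with Benjamini-Hochberg adjustment over all tested transcripts and a threshold of 0.05. Total RPFs were fitted with the line as the term, IP against total within a line with the fraction, and the difference of IP effects with line, clone and fraction within line, a limit of 0.25 and without *Tmod3*. Ratios of single clones had 0.5 counts added. Alternatives used voom and limma 3.58.1, DESeq2 1.42.0, other normalizations and filters, the replicate number as a block, and removal of the CDS length trend by loess (span 0.5). CDS lengths, positions and sequences came from GENCODE M21, which 14 transcripts are not in. Columns not used numbered 0.

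The replicate number pairs libraries, since the IP and total library of a number come from the same clone. Their residuals from group means correlated with r of 0.468 to 0.790 in the 6 tagged clones, and total libraries of a number in other lines with a median r of 0.443 (-0.164 to 0.713). Library totals of 3972152 to 8064166 limit the precision, and counts per member are given in the report where they are low. Clones of a line come from the same parental line. Without a block p-values measure the spread of libraries between clones. With the clone as a block they measure how the IP effect varies between clones. Members were grouped by place in the pore. Values in every library are given for the members called, up to 6 per comparison by lowest p, or for the 2 with the lowest p where none was called, and levels for the highest and lowest member of each group. The members, lists and tests were chosen with earlier results of these data known. Scripts were tested on simulated data. Sequence counts and figures were made in Python 3.11.15 (pandas 2.3.3, matplotlib 3.10.9).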

Additional observations from a re-analysis of the deposited data

Results flagged for a closer look

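In 4 members the IP effect differed between the tagged lines by the test of the difference itself, each less reduced in *Rps27l-FLAG*. The IP effect of *Rps27l-FLAG* minus that of *Rps27-FLAG* was 0.32 on the log2 scale for *Tpr* (standard error 0.040, adjusted p = 1.57e-09), 0.26 for *Nup205* (standard error 0.042, adjusted p = 7.40e-06), 0.21 for *Nup188* (standard error 0.043, adjusted p = 0.00110) and 0.19 for *Nup43* (standard error 0.053, adjusted p = 0.0286), from edgeR with the clone as a block. The first pair also passed the limit of 0.25, as did 0.466% of all tested transcripts in this direction. The share of all tested transcripts that passed the adjusted p alone is not given here. *Nup205*, *Nup188* and *Tpr* have CDS of 6024, 5277 and 7293 nt and *Nup43* of 1140 nt. Of the 500 tested transcripts with a CDS over 5000 nt, 343 had a positive difference, with a median of 0.08, and 5.4% passed with the limit.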

How the results depend on the processing

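In the total RPFs, the count of 0 called members held under every alternative tried, the replicate block included, where 1, 144 and 137 of the 10085 tested transcripts were called and 4, 5 and 5 members had an unadjusted p under 0.05. For IP against total RPFs, the 9 members in *Rps27-FLAG* and 5 in *Rps27l-FLAG* became 24 and 20 with the replicate block, 1 and 0 with the CDS length trend removed, and 20 and 17 with both. Of all tested transcripts, 22.9% and 19% were lower and 18.3% and 12% higher with the block. With the length trend removed 0.268% and 0.0793% were called, and with both 13% and 8.05% were lower and 18.4% and 14.7% higher. Leaving out a clone gave 0 to 17 and 0 to 5 members, where 0% to 18% and 0% to 3.16% of all tested transcripts were called. For the difference of the IP effects, the 2 members became 0 with the length trend removed, 0 with no replicate block and 4 with no limit on the fold change, and stayed 2 whichever clone was left out. Other tests, normalizations and filters gave 6 to 9, 5 to 6 and 2 members in these 3 comparisons, and fitting all libraries of both tagged lines together gave 10 and 5 for IP against total RPFs. Among the called members with values given for every library, none changed sign under an alternative, and the replicate block ended no call in IP against total RPFs. *Tpr* in *Rps27-FLAG* (adjusted p = 0.128) and *Nup160* in *Rps27l-FLAG* (adjusted p = 0.599) lost their calls with the block and the length trend removed together, and *Ranbp2* in *Rps27-FLAG* turned from lower (-0.35) to higher (0.11, adjusted p = 0.0015) there. The rho of the members with CDS length ranged from -0.58 to -0.51 in *Rps27-FLAG* and from -0.59 to -0.54 in *Rps27l-FLAG* without single clones. The median WT level was 113 in place of 118 CPM per kilobase with the whole CDS as length, and 115 to 120.1 without single clones. The cause of these changes was not tested. *Nupl2* and *Gle1*, with 107 to 382 counts per library, had standard errors of 0.108 to 0.119 for IP against total RPFs, against medians of 0.068 and 0.062 over the members, and *Nup62cl*, with 270 to 751 counts, had 0.171 and 0.225.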
